A study of Mus musculus with 4 samples.

Results

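The actin cytoskeleton genes without formins were a list of 39 named genes, in 9 roles: actin monomers, monomer-binding and turnover proteins, the Arp2/3 complex, nucleation promoters and barbed-end binders, the switch genes Rac1, Rac2, Rhoa and Cdc42, non-muscle myosin II, bundlers and crosslinkers, membrane and adhesion linkers, and intermediate filament and lamina proteins. All 39 were found among the 31053 genes of the files. Single bone marrow cells were sequenced with the 10x Genomics 3′ method, which tags every cell with a barcode and every caught mRNA with a UMI (unique molecular identifier), so that UMIs count molecules. Marrow of femur and tibia was depleted of red cells, and all animals were labelled C57/B6 and 12 months of age. The 4 genotypes gave 1 library each. TWT was IL6+/+, mDia1+/+, miR146a+/+, and IL-6 KO was IL6-/-, mDia1+/+, miR146a+/+. DKO was IL6+/+, mDia1-/-, miR146a-/-, and TKO was IL6-/-, mDia1-/-, miR146a-/-. DKO and TKO thus lack Diaph1, the gene of the formin mDia1, and miR-146a together, so the loss of one cannot be told apart from the loss of the other. The study describes leukemia in moribund DKO mice of about this age, and how many mice each library pools is not stated there. Since every genotype is a lone library, genotypes could not be tested against each other, and with 2 libraries against 2 an exact permutation test could not give a two-sided p below 0.333. All intervals are exact ones at 95% and reflect the counting of UMIs alone, not animals.

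Actin monomers assemble into filaments by 2 main routes. Formins such as mDia1 lengthen straight filaments from the growing (barbed) end under the control of RhoA, whereas the Arp2/3 complex, switched on by proteins such as WASP, starts branches on existing filaments and drives the sheets at the front of a crawling leukocyte. Profilin, thymosins and cofilin set how many monomers are free, myosin II pulls on the filaments, and ezrin, moesin, talin and vinculin tie them to membrane and adhesion sites. Free actin monomers also hold back MRTF, the cofactor of the transcription factor SRF, which binds a DNA element named the CArG box in promoters of several cytoskeletal genes.

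The sequences shown first are the small RNA deleted in both mDia1-/- genotypes, the members that carry its seed match, and the member promoters that hold a CArG box. DKO and TKO cells lack miR-146a, whose main product, mmu-miR-146a-5p, is encoded at chr11:43374435-43374456 (GRCm38.p6, minus strand, RefSeq) and is printed with its seed, bases 2 to 8, in capitals. The 7 bases that pair with this seed (AGTTCTC, searched on the transcript strand) occur in the longest annotated 3′ untranslated region of 3 of the 39 members (7.69%), against 2252 of 20470 coding genes (11.0%). They lie in Ezr (chr17:6739232-6739238, minus strand), Flna (chrX:74223507-74223513, minus strand) and Lmna (chr3:88481658-88481664, minus strand), and each is given with its flanks and with the matching bases in capitals.
mmu-miR-146a-5p: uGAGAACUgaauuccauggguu
Ezr: ttggctctttAGTTCTCttaagtttag
Flna: accaccttctAGTTCTCtttcccagcc
Lmna: gcaggcatggAGTTCTCttcaccagcc
A seed match is a match of letters and not evidence of a site in use. The CArG box was searched in RefSeq promoters (250 bases before to 50 after a start, both strands, since the element reads alike on each). It was found in 4 of the 36 members with a promoter in the table (11.1%) and in 488 of 27025 genes (1.81%), while Actb, Rac1 and Rac2 had no entry. The 4 promoters are printed 5′ to 3′ with the box in capitals, because they show that the match differs in place: it begins at position -90 in Actg1, -50 in Myl6, -227 in Vcl and -250, the edge of the window, in Arpc4, counted from the start site, which for Myl6 is 1 of 2 listed.
Actg1, chr11:120348446-120348745, minus strand: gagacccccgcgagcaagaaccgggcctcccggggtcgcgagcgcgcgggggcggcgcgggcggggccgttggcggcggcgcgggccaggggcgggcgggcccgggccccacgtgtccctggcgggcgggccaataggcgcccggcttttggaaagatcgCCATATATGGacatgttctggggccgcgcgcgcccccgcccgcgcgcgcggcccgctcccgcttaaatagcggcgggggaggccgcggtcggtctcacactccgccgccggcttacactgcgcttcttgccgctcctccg
Myl6, chr10:128492960-128493259, minus strand: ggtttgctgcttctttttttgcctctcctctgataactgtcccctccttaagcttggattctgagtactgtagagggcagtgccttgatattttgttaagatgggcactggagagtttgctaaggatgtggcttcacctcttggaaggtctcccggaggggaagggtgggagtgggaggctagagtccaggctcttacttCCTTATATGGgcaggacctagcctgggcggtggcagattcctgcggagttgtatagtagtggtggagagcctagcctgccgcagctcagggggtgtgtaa
Vcl, chr14:20929148-20929447, plus strand: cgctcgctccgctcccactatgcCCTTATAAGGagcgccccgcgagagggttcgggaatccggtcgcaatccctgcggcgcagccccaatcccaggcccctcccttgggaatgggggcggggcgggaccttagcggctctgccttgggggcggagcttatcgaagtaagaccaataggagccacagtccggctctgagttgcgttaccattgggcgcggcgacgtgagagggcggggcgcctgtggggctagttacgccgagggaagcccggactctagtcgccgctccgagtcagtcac
Arpc4, chr6:113377863-113378162, plus strand: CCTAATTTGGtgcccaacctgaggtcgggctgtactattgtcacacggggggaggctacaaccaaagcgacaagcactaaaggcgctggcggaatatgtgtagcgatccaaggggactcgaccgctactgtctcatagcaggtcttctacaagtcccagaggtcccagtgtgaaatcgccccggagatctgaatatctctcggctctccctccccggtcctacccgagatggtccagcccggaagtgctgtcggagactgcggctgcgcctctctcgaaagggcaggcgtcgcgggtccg

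The libraries held between 61292684 and 85145074 UMIs. Cells with 500 to 4000 genes detected, of whose UMIs no more than 15% were mitochondrial, were kept. They numbered 6794 for TWT, 7476 for IL-6 KO, 9627 for DKO and 7560 for TKO, with a median of 7053 UMIs per cell in DKO and 4586 to 4795 in the other libraries. Between 19 and 36 barcodes occurred in both libraries of a pair. Diaph1 had 192 CPM (its UMIs per 1000000 UMIs of the cells kept, 188 to 196) for TWT, 203 (199 to 207) for IL-6 KO, 11.3 (10.6 to 12.1) for DKO and 12.9 (11.9 to 13.9) for TKO, as the labels say. Il6 UMIs went against the labels, with 51 in TWT and 20 in DKO but 563 where the label reads IL-6 KO and 548 where it reads TKO. Reads at the 3′ end do not test whether an intact protein is made, and TKO and IL-6 KO are used here as labels of libraries. Xist had 33486 UMIs in the IL-6 KO library and at most 3 in each of the others, so this library also differs in sex, which bears on the X-linked members Tmsb4x, Flna, Msn and Was. Each cell was put in 1 of 18 classes by marker genes or left unnamed (16.1% to 22.2% of cells), and the members were compared in the 6 classes with at least 50 cells in every library: mature neutrophil-like, immature neutrophil-like, granulocyte-monocyte progenitor-like (GMP-like), monocyte-like, T cell-like and B cell-like.

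The 39 genes together took 5.23% of all UMIs for TWT, 5.19% for IL-6 KO, 6.05% for DKO and 5.54% for TKO. Within classes most members differed little between libraries, and the differences of at least 2-fold were nearly all in DKO. A gene counted as measured if one library of the pair reached 50 CPM and the pair held 30 UMIs or more, and as higher or lower at 2-fold. Over the 6 classes, 15 of 219 measured pairs of a member and a class were at least 2-fold apart between DKO and TWT (12.7% of pairs over all genes), 1 of 216 between TKO and TWT (0.835%), 0 of 215 between IL-6 KO and TWT (0.546%), and 9 of 219 between DKO and TKO (10.1%). The share of members past the rule was below that of all genes in each comparison (6.85% for DKO over TWT and 4.11% for DKO over TKO). The DKO comparisons share the DKO library, and those with TWT share the TWT library.

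**Figure D1:**
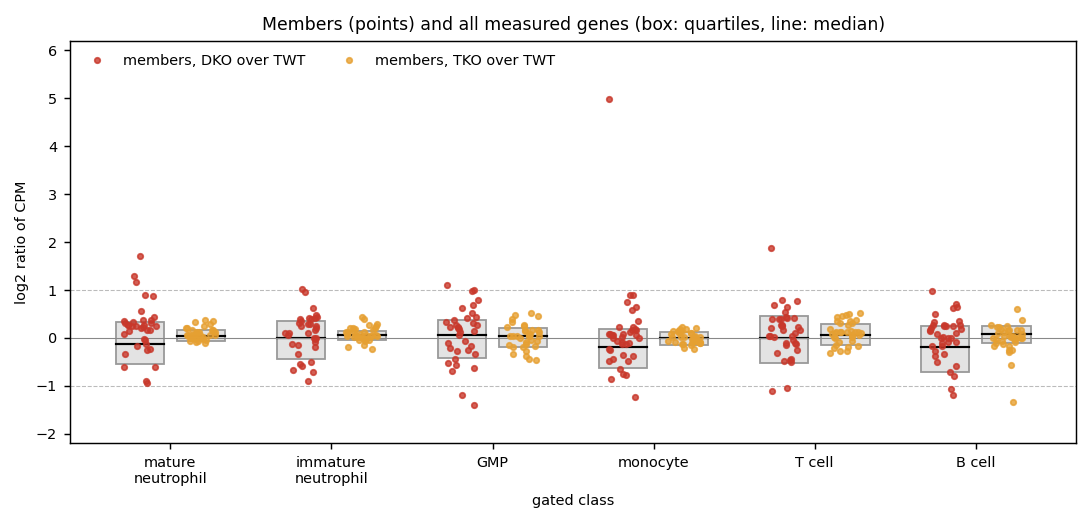
Log2 ratio of CPM (y axis) of each measured member (points) in 6 gated classes (x axis), DKO over TWT in red and TKO over TWT in orange; grey boxes are the quartiles and black lines the medians of all measured genes, and dashed lines mark 2-fold. The TKO points lie between -1.34 (Ahnak in B cell-like cells) and 0.61 (Arpc4 in the same cells), and in DKO the point far above the others is Lmna in monocyte-like cells, at 4.99.

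By class, DKO and TWT compared as follows. Among 36 measured members in mature neutrophil-like cells, 3 were higher, Ezr, Crip1 and Vim (all genes 6.32%), and 0 were lower (7.22%). Crip1 passed the 50 CPM minimum there through DKO alone. Immature neutrophil-like cells had 1 of 35 higher, Vim (3.39%), and 0 lower (4.42%). In GMP-like cells Tmsb10 and Crip1 were higher, 2 of 35 (2.08%), and Myh9 and Flna were lower, also 2 (8.68%). Here too Crip1 passed the minimum through DKO alone. Monocyte-like cells, with all 39 measured, had 1 higher, Lmna (3.34%), and 1 lower, Wipf1 (10.2%). T cell-like cells had 1 of 37 higher, Vim (4.47%), and 2 lower, Wipf1 and Myh9 (8.0%). Of 37 measured in B cell-like cells, 0 were higher (2.21%), and the 2 that were lower were again Wipf1 and Myh9 (14.2%). The members' median log2 ratio was 0.25, 0.11, 0.19, 0.02, 0.16 and 0.09 in these classes in that order, beside -0.13, 0.00, 0.07, -0.19, 0.01 and -0.18 over all measured genes, so in mature neutrophil-like, monocyte-like and B cell-like cells the typical gene read lower in DKO.

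**Figure D2:**
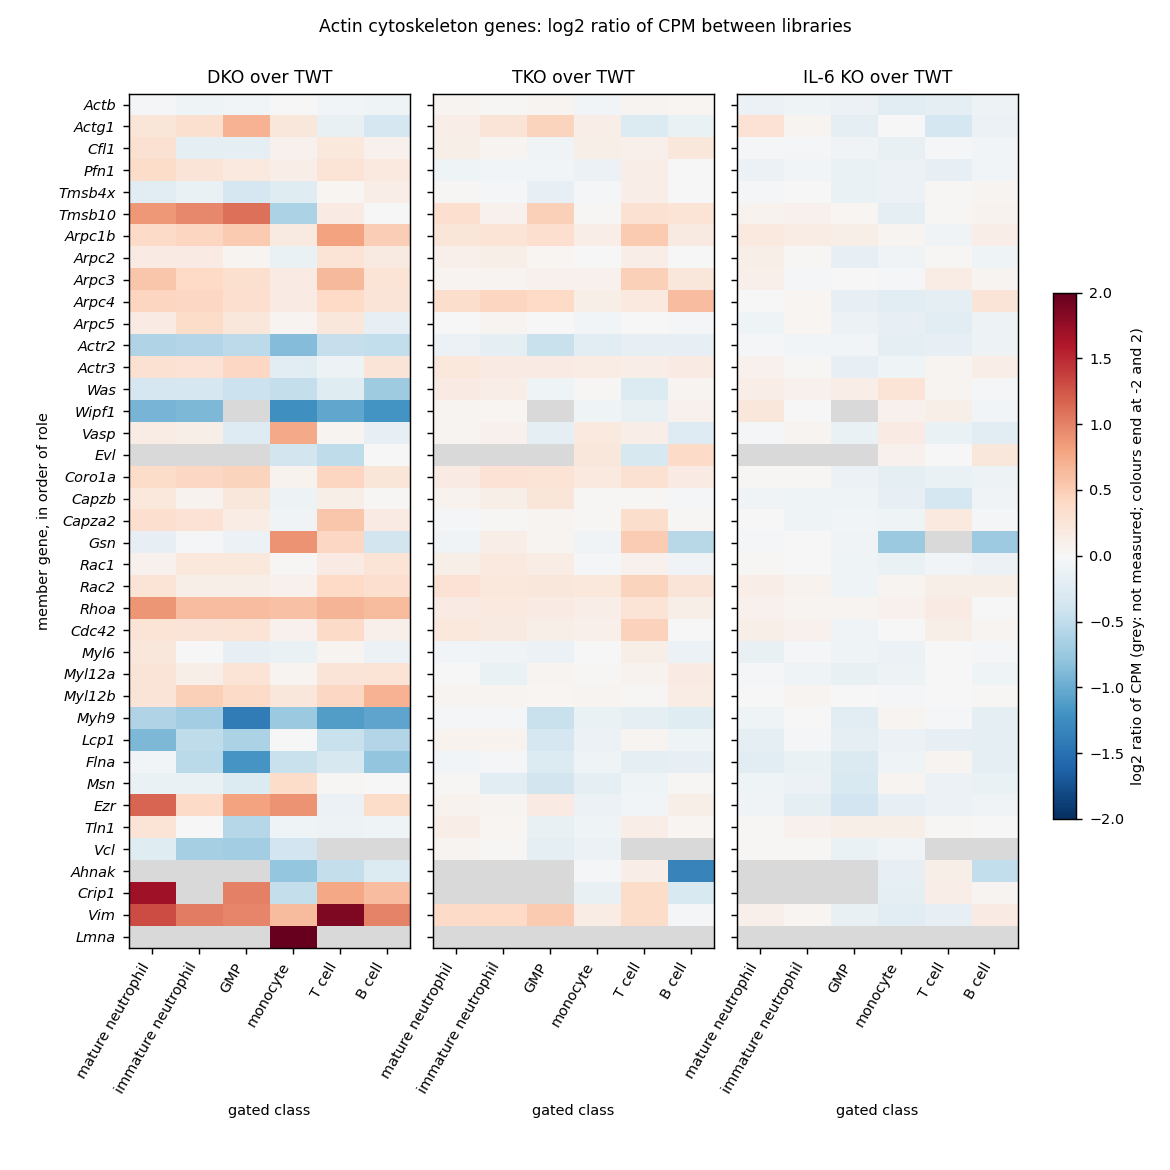
Log2 ratio of CPM of the 39 members (rows, in order of role) in 6 gated classes (columns) for DKO over TWT, TKO over TWT and IL-6 KO over TWT; red is higher, blue is lower and grey is not measured. Rhoa and Vim are red and Actr2 and Myh9 blue in every class of the DKO panel. The strongest values of the other panels are Ahnak in B cell-like cells for TKO (-1.34) and Gsn in monocyte-like cells for IL-6 KO (-0.75).

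Of the actin monomers, Actb was nearly level and Actg1 was not. Actb, β-actin, had 13735 CPM for TWT, 12680 for IL-6 KO, 13572 for DKO and 14354 for TKO in mature neutrophil-like cells. Its log2 ratio of DKO to TWT lay between -0.09 and 0.00 in all 6 classes. Actg1, γ-actin, was measured at 1463 CPM for TWT, 1291 for IL-6 KO, 2366 for DKO and 2004 for TKO in GMP-like cells, a log2 ratio of 0.69 (0.64 to 0.75) for DKO, so here both libraries without Diaph1 stood above both with it. In T cell-like and B cell-like cells the ratio of Actg1 was -0.15 and -0.33. Actb and Actg1 are near-identical in their coding sequence, and how reads were split between them rests on the authors' counting.

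Among the proteins that bind monomers, Tmsb10, thymosin β10, differed in opposite directions between classes. GMP-like cells had 188 CPM for TWT, 193 for IL-6 KO, 403 for DKO and 261 for TKO, and immature neutrophil-like cells had 253, 268, 492 and 269 in the same order. Monocyte-like cells had 6170 for TWT, 5381 for IL-6 KO, 3947 for DKO and 6296 for TKO. DKO was thus the highest library in progenitors and neutrophils and the lowest in monocytes, with log2 ratios to TWT of 1.10 (0.95 to 1.24), 0.96 (0.89 to 1.03) and -0.64 (-0.67 to -0.62). The difference between classes was not tested, since each has 1 library per genotype. In T cell-like and B cell-like cells the ratio was 0.16 and 0.01. In immature neutrophil-like cells the 8 monocyte markers summed to 702 CPM for TWT, 791 for IL-6 KO, 915 for DKO and 772 for TKO, with 6 of the 8 at least 2-fold higher in DKO, and the 7 GMP markers to 342, 373, 689 and 417, with 2 higher. In GMP-like cells the monocyte markers summed to 1268, 1176, 1082 and 991, with 3 higher. Their part in the level of Tmsb10 was not tested. Tmsb10 (chromosome 6, 72957347 to 72958748, minus strand, GRCm38) thus had the widest spread between classes of the 3 thymosin and profilin genes. Tmsb4x, thymosin β4, which is X-linked, lay between -0.33 and 0.14 in log2 ratio. Pfn1, profilin 1, which hands monomers to formins, was highest in DKO in all 6 classes, by log2 0.13 to 0.36 over TWT, for example 2190 CPM for TWT, 2009 for IL-6 KO, 2811 for DKO and 2057 for TKO in mature neutrophil-like cells. Cfl1, cofilin, which severs filaments, ranged from -0.20 in GMP-like to 0.31 in mature neutrophil-like cells.

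The Arp2/3 complex is built of Actr2, Actr3 and 5 Arpc subunits, and its members did not move as one. In 3 classes, both neutrophil classes and GMP-like cells, 6 of the 7 subunits had a log2 ratio of DKO to TWT above 0, and the remaining one was Actr2, which encodes ARP2. Actr2 had 369 CPM for TWT, 321 for IL-6 KO, 203 for DKO and 314 for TKO in monocyte-like cells. DKO was the lowest of the 4 libraries for Actr2 in all 6 classes, with log2 ratios from -0.86 (-0.95 to -0.78) in monocyte-like to -0.46 (-0.64 to -0.27) in T cell-like cells. Actr3, its partner ARP3, had the other sign in 4 classes, from 0.25 to 0.41, and -0.23 and -0.10 in monocyte-like and T cell-like cells. Arpc1b and Arpc3 were highest in DKO in all 6 classes. T cell-like cells had 462 CPM of Arpc1b for TWT, 440 for IL-6 KO, 804 for DKO and 668 for TKO, a log2 ratio of 0.80 (0.68 to 0.92) for DKO and 0.53 (0.37 to 0.69) for TKO. Arpc3 reached its largest ratio, 0.65, in the same cells. Arpc2 and Arpc5 stayed between -0.16 and 0.36.

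Arpc4 separated the libraries without Diaph1 from those with it in 3 classes. In mature neutrophil-like cells it had 144 CPM (135 to 154) for TWT and 146 (138 to 154) for IL-6 KO, and on the other side 194 (184 to 205) for DKO and 184 (174 to 194) for TKO. Immature neutrophil-like cells had 149, 153, 197 and 201, and GMP-like cells 171, 152, 215 and 225, in the same order of libraries. The intervals of the 2 groups of libraries did not overlap in these 3 classes, and DKO and TKO did not differ beyond counting error (log2 ratio of DKO to TKO 0.08, -0.03 to 0.19, in mature neutrophil-like cells). In B cell-like cells TKO was highest at 133, DKO and IL-6 KO both read 104 and TWT read 86.9. Arpc4 (chromosome 6, 113378115 to 113390448, plus strand) overlaps Ttll3 on the same strand, so reads of the 2 genes may not be fully separable. When genes above 1% of UMIs were left out of the total, Arpc4 no longer met the 25% gap used below for Diaph1 status in any of the 3 classes. It also fell short in mature neutrophil-like and GMP-like cells with ratios centred on the median gene or with the mean over cells, and in GMP-like cells with doublets left out or free RNA subtracted.

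**Figure D3:**
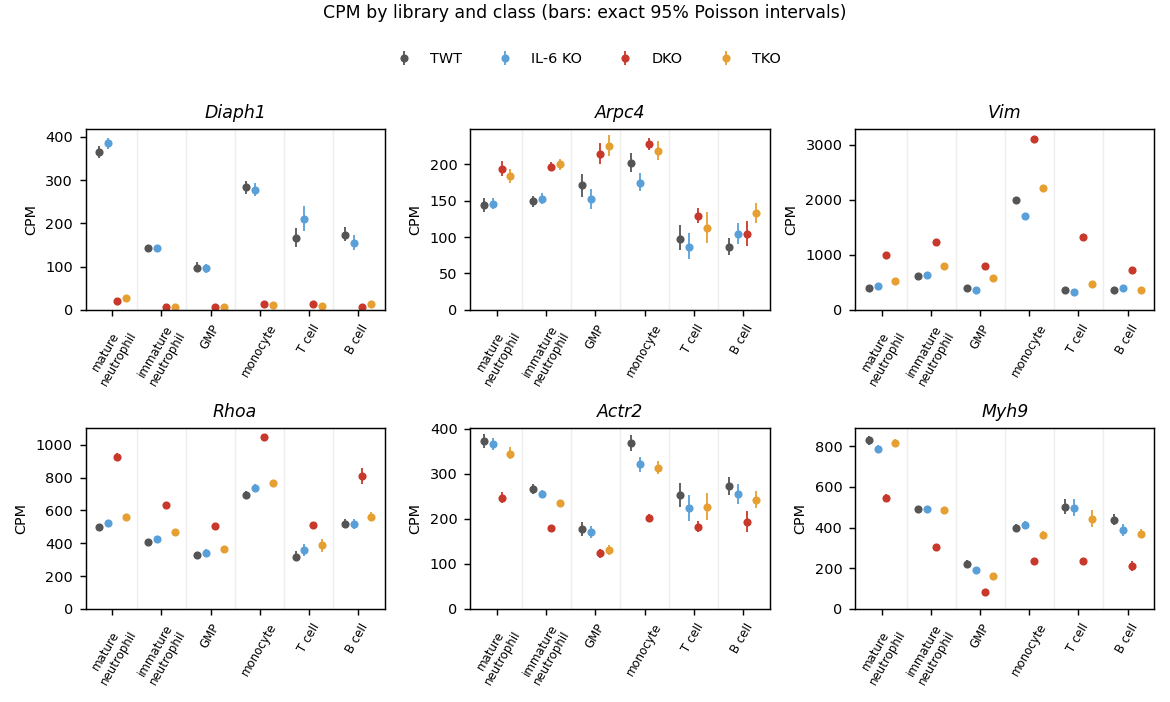
CPM (y axis, from 0) of Diaph1 and 5 members in 6 gated classes (x axis), 1 point per library with its exact 95% Poisson interval; TWT grey, IL-6 KO blue, DKO red, TKO orange. Diaph1 is low in DKO and TKO, Arpc4 is higher in both of them in the first 3 classes, and for Vim, Rhoa and Myh9 the DKO intervals lie apart from those of the other 3 libraries in all 6 classes. For Actr2 the DKO interval overlaps that of TKO in GMP-like and that of IL-6 KO in T cell-like cells.

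Proteins that start branches, or hold or cap the barbed end, included Wipf1, the member with the lowest log2 ratio of DKO to TWT in both neutrophil classes and in monocyte-like and B cell-like cells. Wipf1 encodes WIP, the partner that stabilises WASP, and lies on chromosome 2 at 73429610 to 73529734, minus strand. Monocyte-like cells had 167 CPM (156 to 180) of Wipf1 for TWT, 178 (165 to 191) for IL-6 KO, 71.5 (67.2 to 76.0) for DKO and 159 (148 to 170) for TKO. DKO was the lowest library in all 6 classes, with log2 ratios to TWT of -0.93, -0.90, -1.17, -1.23, -1.04 and -1.19 in the order of classes used above, although in GMP-like cells (30.5 CPM in TWT) it was under the minimum. After each cell was thinned to 2000 UMIs, 32.6% (28.6 to 36.8) of TWT and 13.6% (11.9 to 15.6) of DKO monocyte-like cells had a Wipf1 UMI. Thinned GMP-like cells had 4.79% (1.95 to 9.63) in TWT and 2.56% (0.947 to 5.50) in DKO, with overlapping intervals. Was, which encodes WASP itself and is X-linked, read lower in DKO than TWT in all 6 classes without reaching 2-fold, with log2 ratios from -0.25 to -0.71. In B cell-like cells Was had 104 CPM for TWT, 101 for IL-6 KO, 63.6 for DKO and 108 for TKO.

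The barbed-end proteins differed by class. Vasp, which keeps barbed ends growing, stood at 145 CPM for TWT, 163 for IL-6 KO, 244 for DKO and 165 for TKO in monocyte-like cells (log2 ratio of DKO to TWT 0.75, 0.63 to 0.87) and lay within -0.26 and 0.15 elsewhere. Its relative Evl was measured in 3 classes and had 209 CPM (185 to 235) for TWT, 209 (182 to 239) for IL-6 KO, 147 (136 to 158) for DKO and 167 (142 to 194) for TKO in T cell-like cells. Both libraries without Diaph1 were the lower ones there, although the TKO interval overlapped those of TWT and IL-6 KO. Gsn, gelsolin, which severs and caps filaments, had 145 CPM for TWT, 86.0 for IL-6 KO, 269 for DKO and 138 for TKO in monocyte-like cells. TWT and IL-6 KO differed by log2 -0.75 for Gsn in these cells, nearly as much as the 0.90 (0.78 to 1.02) between DKO and TWT. Coro1a, coronin 1A, was higher in DKO than TWT in all 6 classes by log2 0.07 to 0.44. The capping protein genes Capzb and Capza2 lay between -0.10 and 0.55.

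RhoA is the GTPase that opens mDia1, and Rhoa (chromosome 9, 108306129 to 108337934, plus strand) showed a larger ratio of DKO to TWT than Rac1, Rac2 and Cdc42 in every class. Mature neutrophil-like cells had 498 CPM of Rhoa for TWT, 526 for IL-6 KO, 925 for DKO and 559 for TKO, and monocyte-like cells had 694, 738, 1047 and 765. DKO stood alone at the top, and TKO came second in all 6 classes. The log2 ratios of DKO to TWT for Rhoa ran from 0.59 (0.54 to 0.65) in monocyte-like to 0.89 (0.83 to 0.95) in mature neutrophil-like cells, below 2-fold in each. Rac2, the Rac of blood cells, lay between 0.09 and 0.40, Rac1 between 0.02 and 0.27, and Cdc42 between 0.08 and 0.39. For Rac2, TKO was at or above the level of DKO in 5 of the classes, for example 738 CPM for TWT, 794 for IL-6 KO, 970 for DKO and 1003 for TKO in T cell-like cells.

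Within non-muscle myosin II the heavy chain and the light chains parted. Myh9 encodes the heavy chain of myosin IIA and lies on chromosome 15 at 77760587 to 77842175, minus strand. GMP-like cells had 221 CPM (204 to 240) for TWT, 189 (174 to 204) for IL-6 KO, 83.5 (74.9 to 92.9) for DKO and 163 (150 to 175) for TKO. T cell-like cells had 503, 497, 234 and 444, and B cell-like cells 439, 388, 211 and 370. DKO was the lowest library for Myh9 in all 6 classes, with log2 ratios to TWT from -0.60 (-0.66 to -0.54) in mature neutrophil-like to -1.40 (-1.60 to -1.21) in GMP-like cells. The regulatory light chain genes read higher in DKO than in the other 3 libraries in all 6 classes, Myl12b by log2 0.23 to 0.70 over TWT and Myl12a by 0.06 to 0.27. B cell-like cells, at the upper end, had 383 CPM of Myl12b for TWT, 391 for IL-6 KO, 621 for DKO and 425 for TKO. Myl6, the essential light chain, lay between -0.16 and 0.22. Myl12a and Myl12b are close copies that lie side by side on chromosome 17. Each overlaps a further annotated record named Myl12b, so their split is uncertain.

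Both bundlers and crosslinkers read lower in DKO than TWT in all 6 classes. Lcp1, L-plastin, which bundles filaments in leukocytes, had 2087 CPM for TWT, 1832 for IL-6 KO, 1115 for DKO and 2198 for TKO in mature neutrophil-like cells, a log2 ratio of -0.90 (-0.94 to -0.86). In these cells the 8 immature neutrophil markers summed to 49462 CPM in DKO and to between 27023 and 30213 in the other libraries. Their part in the level of Lcp1 was not tested. In monocyte-like cells Lcp1 had 480, 441, 476 and 445 CPM, a ratio of -0.01, beside a median of -0.19 over all genes measured there. Flna, filamin A, which joins crossing filaments, had 212 CPM for TWT, 174 for IL-6 KO, 93.4 for DKO and 175 for TKO in GMP-like cells, a ratio of -1.18 (-1.37 to -0.99). It differed little in mature neutrophil-like cells, at 576, 496, 557 and 557 CPM. Flna is X-linked, and TWT and IL-6 KO differed for it by log2 -0.29 in GMP-like cells.

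**Figure D4:**
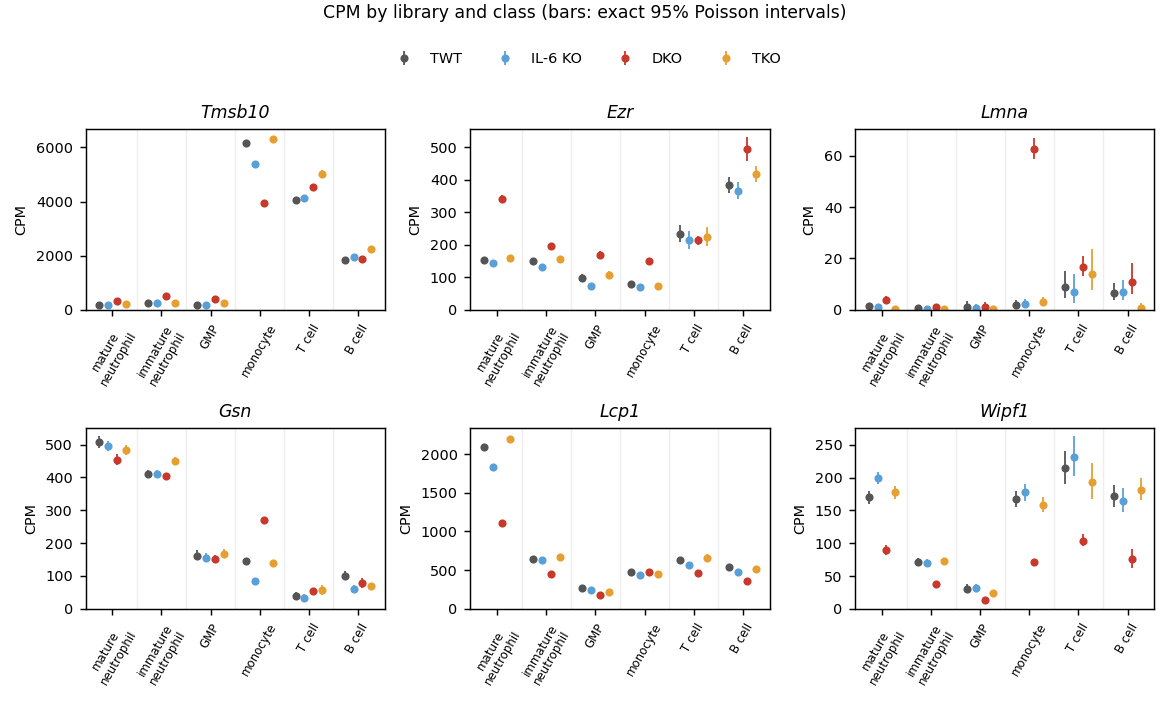
CPM (y axis, from 0) of 6 members in 6 gated classes (x axis), 1 point per library with its exact 95% Poisson interval; TWT grey, IL-6 KO blue, DKO red, TKO orange. DKO is above the other libraries for Ezr in mature neutrophil-like and for Lmna and Gsn in monocyte-like cells, below them for Tmsb10 in monocyte-like, Lcp1 in mature neutrophil-like and Wipf1 in all 6 classes.

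Among the membrane and adhesion linkers, Ezr and Msn, which encode the related linkers ezrin and moesin, did not move together. Mature neutrophil-like cells had 153 CPM (144 to 163) of Ezr for TWT, 145 (137 to 154) for IL-6 KO, 341 (328 to 355) for DKO and 161 (152 to 170) for TKO. Monocyte-like cells had 79.9, 71.5, 149 and 74.1. DKO was well above the other 3 libraries for Ezr in both, with log2 ratios to TWT of 1.16 (1.05 to 1.26) and 0.90 (0.74 to 1.07), but T cell-like cells read 233, 214, 214 and 223. The 8 immature neutrophil markers summed to 49462 CPM in DKO and to between 27023 and 30213 in the other libraries of mature neutrophil-like cells, and their part in the level of Ezr was not tested. Msn, which is X-linked, lay between -0.28 and 0.36. TKO stayed within log2 -0.11 to 0.16 of TWT for Ezr in all 6 classes. The 3′ untranslated region of Ezr holds a miR-146a-5p seed match (printed above), and its part in the level of Ezr was not tested. Tln1, talin 1, and Vcl, vinculin, both of adhesion sites, lay between -0.57 and 0.28 and, in the 4 classes where Vcl was measured, between -0.69 and -0.25.

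Ahnak and Crip1 had few UMIs in the neutrophil lineage of TWT. Ahnak, a giant scaffold under the membrane, had 1015 CPM in TWT monocyte-like cells and 2.72 in TWT mature neutrophil-like cells. Monocyte-like cells had 1015 CPM for TWT, 911 for IL-6 KO, 592 for DKO and 1005 for TKO. In mature neutrophil-like cells, under the 50 CPM minimum, Ahnak had 2.72 CPM for TWT, 2.70 for IL-6 KO, 28.6 (24.7 to 32.9) for DKO and 2.23 for TKO. DKO was thus the lowest library in one cell class and the highest in the other. Crip1, a small LIM protein, followed the same order, with 3015, 2643, 2175 and 2720 CPM in monocyte-like and 16.6, 10.9, 54.1 (48.7 to 59.9) and 5.65 in mature neutrophil-like cells. The summed level of the 8 monocyte markers in mature neutrophil-like cells was 672 CPM for TWT, 677 for IL-6 KO, 884 for DKO and 766 for TKO, with 6 of the 8 at least 2-fold higher in DKO, and their part in these values was not tested. The 1 member that was 2-fold apart between TKO and TWT was Ahnak in B cell-like cells, at 158 CPM for TWT, 112 for IL-6 KO, 130 for DKO and 62.2 for TKO.

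Vim encodes vimentin, the intermediate filament of mesenchymal and blood cells, and lies on chromosome 2 at 13573927 to 13582826, plus strand. T cell-like cells had 362 CPM (331 to 396) for TWT, 321 (288 to 358) for IL-6 KO, 1327 (1294 to 1360) for DKO and 468 (427 to 513) for TKO. Mature neutrophil-like cells had 403, 430, 991 and 525, immature neutrophil-like cells 610, 625, 1238 and 805, and monocyte-like cells 1997, 1703, 3113 and 2221. DKO was the highest library in all 6 classes, and TKO was above TWT and IL-6 KO in all but B cell-like cells (361, 402, 715 and 353). The log2 ratio of DKO to TWT ran from 0.64 (0.61 to 0.67) in monocyte-like to 1.87 (1.74 to 2.01) in T cell-like cells, and that of TKO to TWT from -0.03 to 0.53. After thinning to 2000 UMIs per cell, 84.0% (81.4 to 86.3) of DKO T cell-like cells had a Vim UMI, against 43.9% (38.2 to 49.8) in TWT, 33.6% (27.5 to 40.2) in IL-6 KO and 45.7% (38.7 to 52.9) in TKO. Before thinning the shares were 89.7%, 55.9%, 54.2% and 65.2%, over cells with median depths of 3804 to 4086 UMIs. Monocyte markers summed to 927 CPM for TWT, 940 for IL-6 KO, 1812 for DKO and 1493 for TKO in these T cell-like cells, 7 of 8 of them at least 2-fold higher in DKO, and their part in the level of Vim was not tested.

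Lmna, the gene of the nuclear lamins A and C (chromosome 3, 88480147 to 88509956, minus strand), passed the minimum in monocyte-like cells alone of the 6 classes, and through DKO alone. There it had 9 UMIs for TWT (1.98 CPM, 0.906 to 3.76), 10 for IL-6 KO (2.31, 1.11 to 4.25), 918 for DKO (62.8, 58.8 to 67.0) and 16 for TKO (3.10, 1.77 to 5.03). DKO stood 31.7-fold above TWT (log2 4.99, 4.05 to 6.12), while the TKO interval overlapped those of TWT and IL-6 KO. In thinned monocyte-like cells 10.6% (8.99 to 12.3) of DKO cells had an Lmna UMI, against 0.381% in TWT, 0.583% in IL-6 KO and 0.351% in TKO. DKO immature neutrophil-like cells, a class that hardly carries the transcript, had 0.154% (0.0187 to 0.556) at a median depth of 11732 UMIs per cell against 10041 in the monocyte-like cells. Unthinned, 31.8% of DKO and 1.51% of TWT monocyte-like cells had an Lmna UMI. The 8 monocyte markers summed to 8838 CPM for TWT, 8617 for IL-6 KO, 6211 for DKO and 8510 for TKO monocyte-like cells. In the same order the 9 macrophage markers summed to 124, 109, 153 and 118, with 3 at least 2-fold higher in DKO and 1 lower. The 7 non-classical monocyte markers summed to 119, 115, 115 and 111, with 5 higher and 1 lower. The 8 immature neutrophil markers summed to 3040, 6433, 12935 and 4411, with 2 higher. The part of these shifts in the monocyte-like values of any member was not tested. Lmna also has a miR-146a-5p seed match (printed above), and its part in the level of Lmna was not tested.

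The comparison by Diaph1 status asked which members were at least 25% higher in DKO and in TKO than in either of TWT and IL-6 KO, or at least 25% higher in TWT and in IL-6 KO than in either of the other libraries. In mature neutrophil-like cells this held for 1 of 36 members above, Arpc4 (all genes 1.39%), and 0 below (1.08%), and in immature neutrophil-like cells for 2 of 35 above, Arpc4 and Vim (2.04%), and 0 below (0.948%). GMP-like cells had 4 of 35 above, Actg1, Tmsb10, Arpc4 and Vim (6.05%), and 1 below, Actr2 (6.55%), with 123 CPM in DKO and 130 in TKO against 177 in TWT and 171 in IL-6 KO. Among 39 members in monocyte-like cells 1 was above, Lmna (0.749%), and 0 were below (2.01%). Lmna rests here on 16 TKO UMIs and passed the minimum through DKO alone. T cell-like cells had 3 of 37 above, Arpc1b, Gsn and Vim (7.62%), and 1 below, Evl (4.51%). In these cells the 8 immature neutrophil markers summed to 4804 CPM for TWT, 2289 for IL-6 KO, 8100 for DKO and 10205 for TKO. The 8 mature neutrophil markers summed to 1403, 1614, 1324 and 2101 in the same order. Their part in the values of these members was not tested. There Gsn had 39.4 CPM for TWT, 32 for IL-6 KO, 52.9 for DKO and 56.3 for TKO, with the interval of TKO (42.5 to 73.1) overlapping that of TWT (29.6 to 51.5). Gsn thus passed the 50 CPM minimum through DKO and TKO alone. In B cell-like cells 0 of 37 were above (1.42%) and 0 below (1.63%). At a gap of 1.5-fold, 0 members remained in any class.

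A further count, chosen after the values were seen, asked which genes were at least 25% higher in DKO than TWT, or at least 25% higher in TWT than DKO, in all 6 classes. Among the 33 members measured in all of them, Rhoa and Vim were higher in each, 2 of 33 (all genes 7.28%), and Actr2 and Myh9 were lower, also 2 of 33 (11.9%). Centred on the median ratio of all genes, Arpc1b joined Rhoa and Vim, and Actr2 dropped out. With doublets left out, or with the mean over cells, Was joined the lower members, 3 of them then. Between TKO and TWT 0 of 33 members passed in either direction (all genes 0.216% higher and 0.757% lower). DKO over TKO gave Rhoa and Vim again as higher (3.95%) and Myh9 as lower (7.69%).

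**Figure D5:**
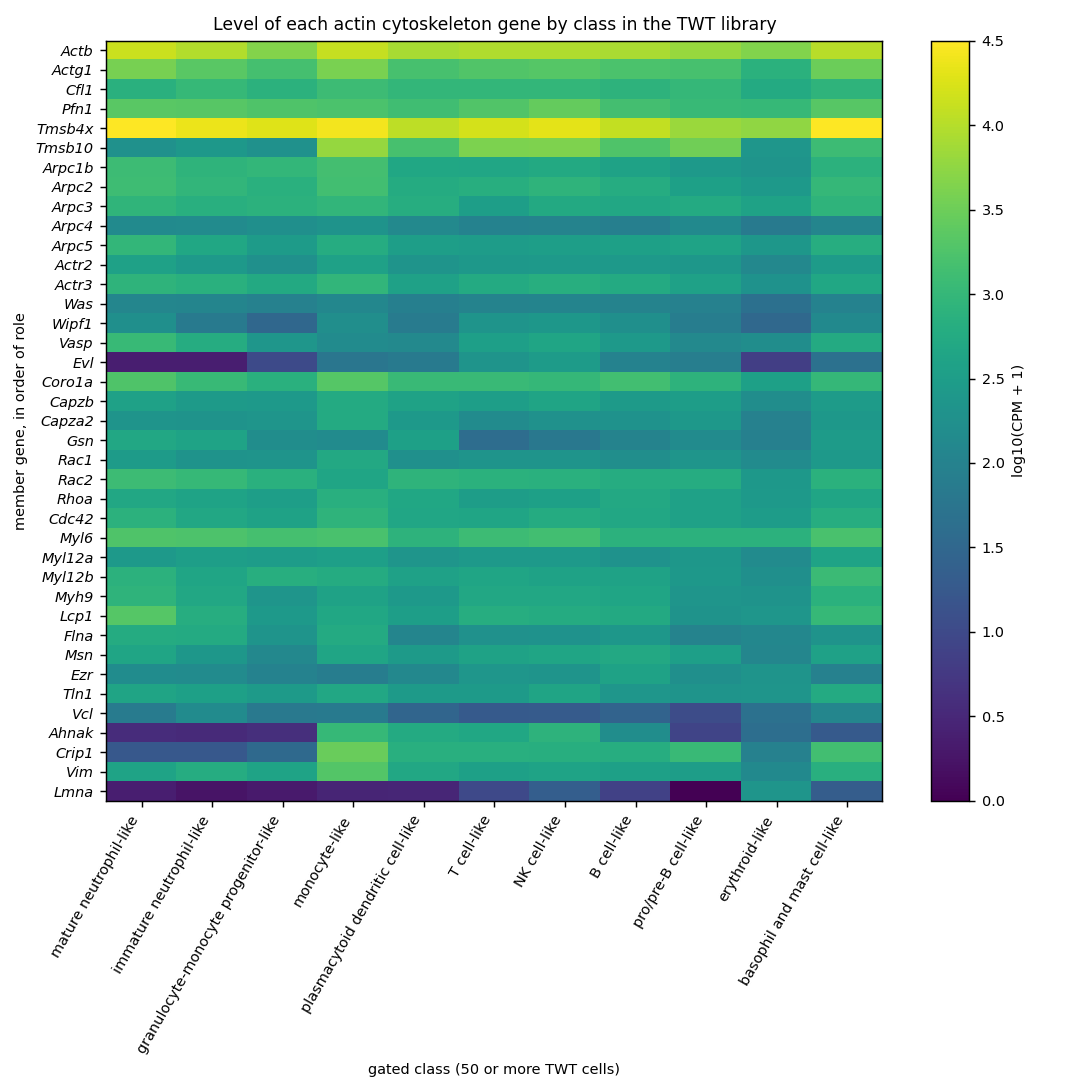
Level of each of the 39 members (rows, in order of role) in the TWT library by gated class (columns, 50 or more TWT cells), as log10 of CPM + 1. The rows of Ahnak, Crip1 and Tmsb10 differ clearly between the neutrophil-lineage columns and the monocyte-like column, and Lmna is dark except in erythroid-like cells.

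Levels of the members across cell classes were described in TWT alone, over the 11 classes with at least 50 TWT cells whose leading genes fitted their names. Monocyte-like cells had the highest level of Arpc4 at 202 CPM (189 to 216), of Rhoa at 694 (670 to 718), of Vim at 1997 (1956 to 2039) and of Tmsb10 at 6170 (6098 to 6243), and for each of these the interval of the next class lay below. Mature neutrophil-like cells were highest for Vasp at 1068 (1044 to 1094), Lcp1 at 2087 (2052 to 2122) and Rac2 at 1214 (1187 to 1241), again apart from the next class. For Actr2, Was, Flna and Myh9 the 2 highest classes were not apart beyond counting error. Ezr was highest in B cell-like cells at 385 (361 to 410) and lowest of all 11 classes in monocyte-like cells at 79.9. Erythroid-like cells were the lowest class for most members, Actb among them at 4500, but held the highest level of Lmna, 225 (199 to 253). Evl ranged from 292 CPM in NK cell-like to 1.36 in mature neutrophil-like cells.

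The other genes of the same machinery, 71 genes in 7 lists, were compared in monocyte-like cells, where 53 were measured, 2 were at least 2-fold higher in DKO than TWT and 2 lower, with a median log2 ratio of -0.28, beside 3.34% higher, 10.2% lower and a median of -0.19 over all genes. Of 10 measured genes of the other Arp2/3 and WAVE list 1 was higher, Abi3 of the WAVE complex. It had 38.1 CPM for TWT, 24.7 for IL-6 KO, 85.5 for DKO and 32.7 for TKO. Abi3 thus passed the 50 CPM minimum through DKO alone. Nckap1l, the WAVE subunit of blood cells, had 127, 121, 69.1 and 117. Abi1 of the same complex (111, 93.7, 76.2 and 86.2) and Arpc1a (120, 115, 164 and 126) were within 2-fold. The 10 other monomer and filament turnover genes held 0 in either direction, with Capg, a capping protein, at 483, 363, 706 and 591, Dstn (destrin) at 192, 207, 276 and 214, and Wdr1 and Capza1 with log2 ratios of -0.41 and -0.36. Other myosins and tropomyosins held 0 of 5, Myo1f reading 230, 250, 137 and 262, while Myo9b, Myo1g and Tpm4 had log2 ratios of -0.74, -0.43 and -0.36. Among 8 other crosslinkers and linkers 1 was higher, Plek (pleckstrin), at 75.7, 75.4, 152 and 82.1, and Lasp1 had 106, 99.9, 57.0 and 95.8, with Actn4 at log2 -0.74 and Rdx at -0.72. SRF and its MRTF cofactors had 1 of 3 measured, Mkl1, the gene of MRTF-A, which was lower at 54.4, 57.8, 24.3 and 55.8. Of 6 tubulins 1 was lower, Tuba1b at 246, 254, 120 and 368, in the same order of libraries, and Tubb4b, Tuba4a and Tubb5 had log2 ratios of -0.84, -0.78 and -0.77. Over the 6 classes, 0 of the 71 genes met the Diaph1-status rule in 3 or more classes, and Capg met it in 2, immature neutrophil-like and T cell-like cells. Of the members, Arpc4 and Vim met it in 3 classes each. The share of all genes that met it in 3 or more classes is not given, so these counts have no background beside them.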

How the data were processed

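The deposited values are UMI counts, whole numbers for every gene in every barcode, which the authors made with Cell Ranger (3.0.2 in the file header) on mm10, and Seurat 4 is also named in the submitters' notes. Red cells were lysed and 10x 3′ v3 libraries were sequenced on DNBseq. The members, lists, markers and comparisons were chosen with earlier results of these data known.

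Cells were kept as stated above. A cell took the class with the highest mean log2 ratio of marker UMIs to those expected at its depth (pseudocount 0.5), if this was at least 0.5, led the next by 0.3 and rested on 2 markers; these limits were set after the scores were seen. Of 18 classes, 17 passed the check of their leading genes. Counts were summed per class and library and given as CPM of the class, with exact Poisson intervals, and ratios with exact conditional binomial intervals; UMIs of 1 library are not replicate animals. Doublets were kept: Scrublet in scanpy 1.11.5 set no usable threshold in DKO, so a score of 0.25 (2.30% to 2.41% of cells) was used for the alternative. Shares of cells holding a UMI followed thinning to 2000 UMIs, with shallower cells left out. Free RNA was gauged by S100a8 and S100a9, neutrophil transcripts, in B cell-like cells (31213 CPM for TWT, 21292 for IL-6 KO, 8760 for DKO, 17681 for TKO). Alternatives were other filters on cells, doublets left out, other scalings, a mean over cells, a stricter gate, free RNA subtracted, other fold and gap limits, no CPM minimum, a pseudocount and, chosen after seeing the data, a library left out. Positions and untranslated regions are from GENCODE on GRCm38, and promoters and the miRNA from RefSeq on GRCm38.p6; 22 of 39 members overlap another annotated gene, and the use of strand in counting is not stated. Python 3.11.15, numpy 2.4.6, scipy 1.17.1, pandas 2.3.3 and matplotlib 3.10.9 were used, and the rules were tested on simulated counts.

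The genes named are all members, and of each other list up to 4 measured genes of largest ratio in monocyte-like cells with any that met the Diaph1-status rule in 3 classes. The result of 1 of the other lists, and the summary of 1 group of members, is not reported here.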

Additional observations from a re-analysis of the deposited data

Results flagged for a closer look

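Tmsb10 was singled out because its log2 ratio of DKO to TWT was 1.10 in granulocyte-monocyte progenitor-like and -0.64 in monocyte-like cells, that is, past the counting interval in opposite directions. Each class has 1 library per genotype, so the difference between the classes was not tested.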

How the results depend on the processing

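No paired analysis was possible because each genotype has 1 library and the labels pair none, and for the same reason no replicate could be left out. Of 264 recomputed counts of members, 185 stayed within 1.5 times and 79 did not. The log2 ratios recomputed were 51 named ones, not those of every member in every class, and gave 404 values over the settings. Of these 404 values, 69 moved outside their counting interval and 0 changed sign. The signs of member ratios outside the 51 were not counted. Counts of members at least 2-fold higher in DKO than TWT became, with a 1.5-fold call, 5 in mature neutrophil-like, 3 in immature neutrophil-like, 6 in GMP-like, 6 in monocyte-like, 5 in T cell-like and 4 in B cell-like cells (all genes 15.5%, 12.4%, 10.8%, 7.78%, 17.3% and 8.84%), and those lower 4, 3, 4 and 5 in the first 4 classes (23.6%, 18.4%, 18.9% and 27.3%) and 4 in B cell-like cells (30.5%). Under the other settings named next, 1.40% to 15.6% of all genes passed. Since this range spans classes and settings, the counts that follow show only how far the rule moves, not whether members exceed all genes. Centring on the median ratio of all genes gave 5 higher in mature neutrophil-like, 1 in GMP-like, 3 in monocyte-like and 1 in B cell-like cells, where 1 was lower. Without a CPM minimum 6 were higher in mature and 3 in immature neutrophil-like cells. Leaving genes above 1% of UMIs out of the total gave 1 lower in mature neutrophil-like cells, 0 higher in immature neutrophil-like and 1 higher in GMP-like cells. Subtracting free RNA gave 2 higher in immature neutrophil-like, 4 in monocyte-like, 2 in T cell-like and 1 in B cell-like cells. With a looser filter on cells, 200 detected genes and nothing else, 1 was higher and 0 were lower in GMP-like cells and 2 higher in monocyte-like cells. Leaving out doublets gave 1 higher in GMP-like and 1 in B cell-like cells. The mean over cells gave 1 higher in GMP-like, 1 lower in T cell-like, and 1 higher and 1 lower in B cell-like cells. A pseudocount of 10 CPM gave 1 higher in GMP-like and 1 lower in T cell-like cells.

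For Diaph1 status, any gap above 1 put 18, 18, 19, 14, 23 and 11 members above (all genes 21.1%, 35.6%, 38.5%, 19.3%, 28.9% and 20.2%) and 2, 4, 10, 5, 5 and 4 below (16.8%, 19.5%, 29.0%, 26.6%, 22.4% and 18.1%) in the 6 classes (mature and immature neutrophil-like, GMP-like, monocyte-like, T cell-like, B cell-like), and a gap of 1.5-fold left 0 in each. Under that gap and the settings that follow, 0.210% to 14.2% of all genes passed. This range spans classes and settings, so the counts below are not set against shares of their own and are not read as results about the members. Mature neutrophil-like cells had 0 above without the genes over 1% of UMIs, with centring or with the mean over cells, 2 with free RNA subtracted and 3 with the IL-6 KO library left out. Immature neutrophil-like cells had 0 without the abundant genes and 1 with centring. GMP-like cells had 2 below without a CPM minimum and 3 below without the IL-6 KO library. Monocyte-like cells had 0 above with the looser filter, the mean over cells or the DKO library left out. T cell-like cells had 1 above without doublets, 5 with free RNA subtracted, 8 without the IL-6 KO library and 5 without the DKO library, and 0 below with the looser filter, without the abundant genes, with the mean over cells, with a stricter gate or with free RNA subtracted. B cell-like cells had 1 above without the DKO library, and 1 below without it or without the IL-6 KO library. Leaving out libraries was chosen after seeing the data. Outside DKO the Lmna values of monocyte-like cells rest on 9 to 16 UMIs. The cause of these shifts was not tested.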

Other observations

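The monocyte-lineage classes that were large in DKO alone were left out of the comparisons, because the other libraries held fewer than 50 or barely more cells. Non-classical monocyte-like cells numbered 1374 in DKO, 24 in TWT, 43 in IL-6 KO and 90 in TKO. In them Vim had 1285 CPM (1259 to 1311) in DKO, 395 (275 to 549) in TWT, 137 (83.7 to 212) in IL-6 KO and 388 (320 to 466) in TKO, and Wipf1 had 96.2 (89.4 to 103), 181 (103 to 293), 164 (105 to 245) and 174 (129 to 228) in the same order. Myh9 did not differ beyond counting error there, at 394 (380 to 408) in DKO and 451 (323 to 615) in TWT. Lmna had 216 UMIs in the DKO cells, 28.4 CPM (24.7 to 32.4), and 0 UMIs in the other 3 libraries, whose upper bounds of 41.6 in TWT, 25.3 in IL-6 KO and 12.5 in TKO leave only the TKO and DKO intervals clearly apart. The 349 DKO macrophage-like cells had 134 CPM (121 to 149) of Lmna from 354 UMIs, above the DKO monocyte-like level, while the 25 TWT cells had 0 UMIs and an upper bound of 53.5.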
